A study of Homo sapiens with 4 samples.

Results

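The exons described here belong to the RAB GTPases and to the TBC1D genes, which encode regulators of RAB proteins, and were measured as skipped exon events in HEK293T cells. An event joins 3 exons, and the transcript either keeps or skips the one in the middle. Events were taken where the gene symbol began with RAB and a digit, or with TBC1D, and where at least 20 junction reads, the reads that span a splice junction, were counted on average over the 4 libraries. This gave 318 of 364 such events, out of 54503 events of that depth and 65601 in the whole table. They covered 277 distinct exons of 73 genes, with 181 events in 47 RAB genes and 137 events in 26 TBC1D genes. The RAB symbols also take in 28 events of 8 binding proteins and regulators named after a RAB, such as RAB11FIP3 and RAB3GAP1, and 8 events of RAB4B-EGLN2, a readthrough transcript unit that shares 1 exon with RAB4B.

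RAB proteins are small GTPases that mark the membranes of the secretory and endocytic pathways. They bind effectors in the GTP form and are returned to the cytosol after GTP hydrolysis. Exchange factors, among them the DENN domain proteins and the TRAPP complexes, load GTP, and most proteins with a TBC domain act as GTPase-activating proteins that switch RABs off. Alternative exons in these genes can change the reading frame, the switch regions that bind effectors, or the untranslated ends of the message.

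The study compared 293T cells that received an antisense oligonucleotide (ASO) of gapmer design against SNORD89, a C/D box small nucleolar RNA, with 293T cells whose treatment is given as none, with 2 libraries each, named biological replicates. HEK293T is a human embryonic kidney cell line that takes up transfected nucleic acid readily. The gapmer, with modified MOE wings around a DNA centre that recruits RNase H, was delivered with a lipid reagent at 70 nM; medium was replaced after 24 hours and RNA was extracted at 48 hours. The labels of the untreated cells carry the same transfection text, so it is not clear whether they received the lipid, and they name no control oligonucleotide. Polyadenylated RNA was sequenced in read pairs of 150 bases. The table has a first and a second set of 2 libraries, and neither its header nor the labels say which set had the ASO, so every direction below is first set against second set. The name of the table puts SNORD89 before the cells without ASO, which does not state the order of its sets. Exon skipping measures neither SNORD89 nor gene levels, so neither the depletion nor cell type markers were checked.

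The sequences of 7 exons are shown first, chosen because the results turn on them or because they show how the alternative forms differ. RAB6A, a Golgi RAB, has a pair of similar exons of 106 nt, and these copies lie 66 bases apart between the same flanking exons; capitals mark the 31 bases that differ between them, which leaves 70.8% identity. The first copy lies at chr11:73429830-73429935 and the second at chr11:73429658-73429763, on the minus strand of hg19 as in the table.
RAB6A first copy: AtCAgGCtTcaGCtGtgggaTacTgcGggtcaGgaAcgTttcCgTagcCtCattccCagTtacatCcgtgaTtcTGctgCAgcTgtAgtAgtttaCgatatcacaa
RAB6A second copy: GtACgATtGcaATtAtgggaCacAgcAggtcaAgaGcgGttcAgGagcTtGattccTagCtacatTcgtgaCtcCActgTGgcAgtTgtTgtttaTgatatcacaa
In RAB34, a RAB of the Golgi and of ciliogenesis, 1 exon starts at alternative splice sites 3 bases apart (chr17:27043011-27043079, minus strand), and the capitals are the 3 bases that only the longer form of 69 nt has. The exon holds the codons of the phosphate-binding loop of the GTPase.
RAB34: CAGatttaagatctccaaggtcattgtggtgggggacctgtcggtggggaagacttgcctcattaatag
RAB40B, an adaptor of a cullin ubiquitin ligase, has an exon of 223 nt (chr17:80616367-80616589, minus strand), and in capitals are the 151 bases missing from its shorter form of 72 nt, which starts at a later splice site.
RAB40B: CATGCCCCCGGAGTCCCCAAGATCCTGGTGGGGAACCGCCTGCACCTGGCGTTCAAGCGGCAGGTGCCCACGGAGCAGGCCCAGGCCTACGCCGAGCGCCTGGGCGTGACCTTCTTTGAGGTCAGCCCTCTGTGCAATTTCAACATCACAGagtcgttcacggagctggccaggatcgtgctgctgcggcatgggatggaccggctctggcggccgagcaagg
The next 3 are cassette exons whose length is a multiple of 3, shown for the called exons of TBC1D16 (chr17:77925785-77925994, minus strand) and RAB26 (chr16:2199942-2200052, plus strand) and for a deeply read but seldom used exon of TBC1D9B (chr5:179294445-179294495, minus strand); capitals mark the last 3 bases, next to the 5′ splice site.
TBC1D16: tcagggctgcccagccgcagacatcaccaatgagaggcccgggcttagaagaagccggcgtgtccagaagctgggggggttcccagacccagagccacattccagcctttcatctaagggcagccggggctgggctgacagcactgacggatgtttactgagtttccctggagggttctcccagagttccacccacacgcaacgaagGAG
RAB26: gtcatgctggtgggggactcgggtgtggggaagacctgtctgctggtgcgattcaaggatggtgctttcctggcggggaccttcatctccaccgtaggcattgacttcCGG
TBC1D9B: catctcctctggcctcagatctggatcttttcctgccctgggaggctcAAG
All 7 are written 5′ to 3′ as in transcripts of GENCODE release 29 (GRCh38), matched by the spacing of the 3 exons, and all are annotated there as coding.

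Most RAB and TBC1D exons were included almost always. The inclusion level is the share of transcripts that keep the exon, estimated from junction reads corrected for the lengths of the long and short forms. Of the 318 events, 227 had a mean inclusion level over 0.95, 64 lay between 0.05 and 0.95, and 27 were under 0.05. The middle class made up 20.1% of these events and 24.6% of all tested events. Among the compartments, 6 of 49 events of ER and Golgi RABs were in the middle class, 5 of 30 of early endosome RABs, 5 of 17 of late endosome and lysosome RABs, 8 of 42 of recycling, exocytosis and cilium RABs, and 3 of 7 of the RAB40 adaptors. It held 7 of 28 events of the RAB-named regulators and 30 of 137 events of TBC1D genes.

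**Figure D1:**
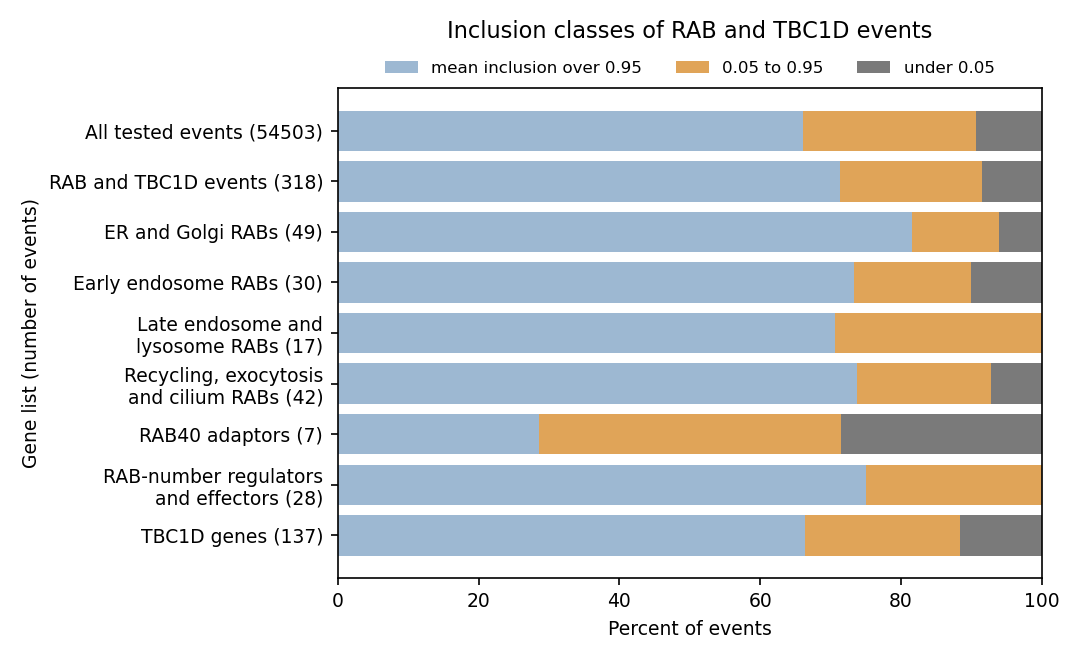
Percent of events (x axis) in 3 classes of mean inclusion level over the 4 libraries, for all tested events, all RAB and TBC1D events and each gene list (y axis, number of events in brackets). The bar of the RAB40 adaptors, with 7 events, has the smallest part over 0.95, and the ER and Golgi RABs have 6 of 49 events between 0.05 and 0.95.

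Of the 277 exons, 221 were coding in GENCODE release 29, 29 partly coding, 13 in a UTR and 9 non-coding, and 5 could not be matched. For 96 of the matched exons the junction that skips the exon is itself annotated, and for 176 it is not. Intermediate inclusion was found in 30 (31.2%) of the former and 19 (10.8%) of the latter, and all 27 exons under 0.05 had an annotated skipping junction. A length that is a multiple of 3, which leaves the reading frame intact when the exon is skipped, was found in 42.6% of the 277 exons and 40.3% of all tested exons. Among coding exons of these genes, 23 of 98 with such a length were of intermediate inclusion, against 17 of 123 with another length. Of 272 exons with a sequence, 79.8% ended in G, the usual last base before a 5′ splice site, with 85.7% in the middle class, 78.6% over 0.95 and 77.8% under 0.05. These shares describe the exons and were not tested.

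Summed over all events, the libraries held 38613055 to 43929373 junction reads. On the 318 events the sums were 108044 and 101528 reads in the first set, against 90681 and 98076 in the second. One library, the one listed last in the second set (its library 2), stood apart on these events. Of the 318 events, 200 had no skipping read there, against 105, 113 and 132 in the other libraries. That count was not taken over all tested events, so it is not shown to be particular to these genes. This library also had no read at all on 3 events. Inclusion levels of the 2 libraries of the second set differed by over 0.2 in 13 of 315 events (4.13%, all tested 5.47%). Those of the first set did so in 5 of 318 (1.57%, all tested 1.93%). The set means differed by more than 0.2 in 3 (0.943%, all tested 1.94%). Called events, and the described ones in which this library stands apart, are given with and without it. Library numbers are places in the table and pair nothing across sets, and intervals cover counting error only.

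In the authors' deposited table, 12 of the 318 events (3.77%) were called, that is, had a false discovery rate (FDR) under 0.05 and a difference in inclusion level of at least 0.1, beside 2.71% of all tested events. The first set was higher in 5 of them (background 1.34%) and lower in 7 (background 1.37%). They lay in 12 exons of 11 genes: RAB31, RAB40B, TBC1D3 and 2 exons of TBC1D8 were higher in the first set, and RAB26, RAB7L1, RAB11FIP4, TBC1D10B, TBC1D16, TBC1D19 and TBC1D32 were lower. All 12 had an intermediate mean inclusion level, which a difference of at least 0.1 all but requires. In that class, 18.8% of 64 RAB and TBC1D events and 11% of all tested events were called. The median difference over the 318 events was -0.00303, first minus second set, and over all tested events -0.0014. An FDR under 0.05 at any difference was given to 22 events (6.92%; background 5.72%) in the authors' deposited table, and a p-value under 0.05 to 44 (13.8%; background 14.3%).

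A second test measured its error from the spread between libraries of a set. This quasi-binomial model with a moderated dispersion, fitted to all tested events, gave no RAB or TBC1D event an adjusted p under 0.05 (background 0%); the smallest was 0.866. Its unadjusted p was under 0.05 for 9 of the 318 events (2.83%; background 2.13%). The limma fit with precision weights gave 2 of the 318 events an adjusted p under 0.05, in RAB1A and RAB7A (0.629%; background 0.235%), and limma without weights gave 0 (background 0%). With 2 libraries a set, such a count does not show that changes are absent. The sets were apart, with no overlap in inclusion level, in 62 events (19.5%; background 22.8%), in 19 of the 64 of intermediate inclusion (29.7%; background 33.3%), and in 7 of the 12 called events (2.2% of the 318; background 2.14%).

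**Figure D2:**
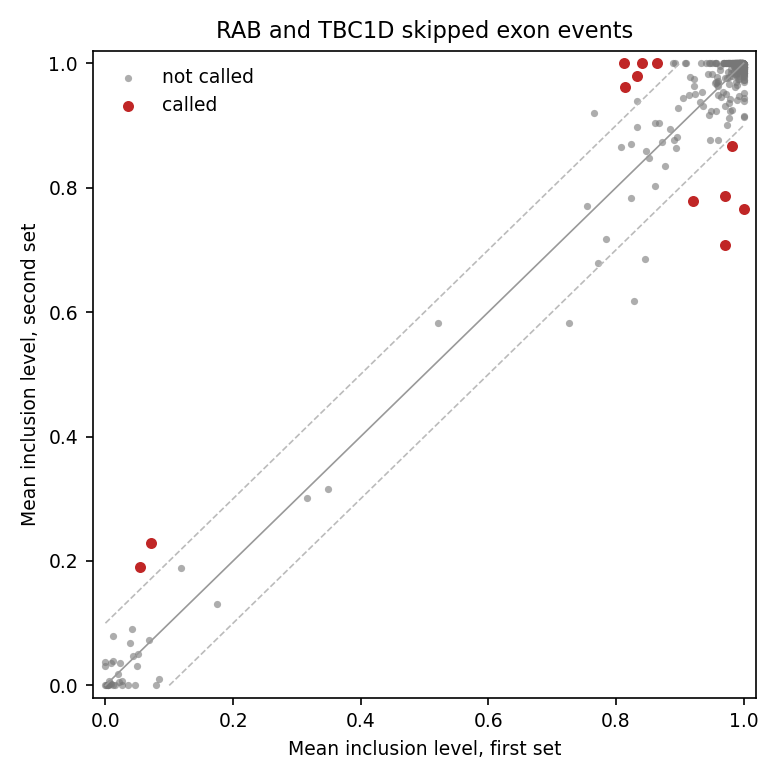
Mean inclusion level (fraction) of each of the 318 events in the first set (x axis) and the second set (y axis), called events in red, with dashed lines at a difference of 0.1. Most points crowd near 1 and near 0, and 19 events lie beyond the dashed lines, of which 12 are called.

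Among the RABs themselves, RAB40B, RAB31, RAB26 and RAB7L1 had a called exon. The RAB40B exon of 72 nt (ENSG00000141542.6) had inclusion levels, with 95% Wilson intervals, of 0.908 (0.816 to 0.957) and 0.934 (0.844 to 0.974) in the first set. In the second they were 0.697 (0.589 to 0.786) and 0.862 (0.753 to 0.927), and the reads were 94, 88, 97 and 82. Both libraries of the first set were above both of the second, and library 1 of the second set was the lowest. The authors' deposited table lists it at 0.142 with FDR 0.0353; the quasi-binomial p was 0.0883, and the difference was 0.0593 without library 1 of the second set. The longer form of the exon, 223 nt, is printed above and shares its skipping reads with the shorter one. Its levels were 0.952 and 0.968 against 0.827 and 0.926, and the authors' deposited table has it at 0.083 with FDR 0.0132, under the size needed for a call.

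RAB31, a RAB of the RAB5 group on early endosomes and the trans-Golgi network, has a coding exon of 80 nt at chr18:9775275-9775354 (ENSG00000168461.8). It was included at 0.991 and 0.972 in the first set, against 1 and 0.734 in the second, from 167, 163, 117 and 63 reads. Only library 2 of the second set was low (0.598 to 0.837), and library 1 of that set was above both libraries of the first. The authors' deposited table lists it at 0.115 with FDR 0.0401, the quasi-binomial p was 0.152, and without library 2 of the second set the difference was -0.0186.

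RAB26 acts on secretory vesicles, and its exon of 111 nt (ENSG00000167964.8), printed above, holds the codons of the phosphate-binding loop. It was included at 0.732 and 0.935 in the first set, against 0.958 and 1 in the second, from 52, 52, 41 and 56 reads. The sets did not overlap, but library 2 of the first set and library 1 of the second had intervals that did (0.793 to 0.982 and 0.799 to 0.992). It is listed at -0.145 with FDR 0.00711 in the authors' deposited table, the quasi-binomial p was 0.126, and without library 1 of the first set the difference was -0.0443.

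RAB7L1, listed as RAB29 in GENCODE release 29 and known as a partner of the kinase LRRK2, has a partly coding exon of 254 nt at chr1:205743961-205744214 (ENSG00000117280.8). Inclusion was 0.836 and 0.791 in the first set, against 0.923 and 1 in the second, from 112, 137, 100 and 35 reads, so every library of the first set was lower. In the authors' deposited table it stands at -0.148, with an FDR of 0.0243. The quasi-binomial p was 0.157, and the difference was -0.11 without library 2 of the second set, its shallowest. In another tested event of this exon, library 1 of the first set was at 1 and library 2 at 0.935. Both libraries of the second set were at 1 there, and the authors' deposited table lists that event at -0.032.

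The RAB11 effector RAB11FIP4, which works in recycling and cytokinesis, had the lowest FDR of a RAB-named gene. Its coding exon of 227 nt at chr17:29844669-29844895 (ENSG00000131242.11) was included at 0.81 (0.675 to 0.897) and 0.871 (0.751 to 0.938) in the first set, against 1 in both libraries of the second (0.832 to 1 and 0.89 to 1). The reads were 76, 87, 38 and 62, and all 14 skipping reads came from the first set. The authors' deposited table lists it at -0.159 with FDR 0.00113, the quasi-binomial p was 0.0593, and leaving out any 1 library gave between -0.19 and -0.129.

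Of the TBC1D genes, TBC1D16, whose protein acts on RAB4A, had the lowest FDR. Its exon of 210 nt (ENSG00000167291.11), printed above, is seldom used: inclusion was 0.0514 (0.0319 to 0.0816) and 0.0573 (0.0299 to 0.107) in the first set, against 0.135 (0.0561 to 0.291) and 0.246 (0.173 to 0.337) in the second. The reads were 174, 83, 21 and 81. Both libraries of the second set were higher, library 2 by more than its interval and library 1 not. The authors' deposited table lists it at -0.137 with FDR 0.000401. The quasi-binomial p was 0.00759, the smallest of the called events, and the difference was -0.0808 without library 2 of the second set.

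TBC1D32 is known from cilia and Hedgehog signalling. Its coding exon of 202 nt at chr6:121577230-121577431 (ENSG00000146350.9) was included at 0.833 and 0.895 in the first set, against 1 in both libraries of the second, from 55, 36, 17 and 54 reads. No skipping read was seen in the second set, but the interval of its library 1 reached down to 0.689. In the authors' deposited table it stands at -0.136 with FDR 0.0172, and the quasi-binomial p was 0.132.

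TBC1D19 rested on 1 library. Its coding exon of 73 nt at chr4:26614791-26614863 (ENSG00000109680.6) was included at 0.627 in library 1 of the first set and at 1 in the other 3 libraries, from 28 reads in each. The authors' deposited table lists it at -0.186 with FDR 0.0128, the quasi-binomial p was 0.0984, and without that library the difference was 0.

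TBC1D10B, a GTPase-activating protein for several RABs, has a coding exon of 108 nt at chr16:30376426-30376533 (ENSG00000169221.9) that entered 2 events with different flanking exons. In the called event it was included at 0.0548 and 0.0881 in the first set, against 0.279 and 0.179 in the second, from 33, 28, 40 and 33 reads. Every library of the second set was higher, with -0.158 listed at FDR 0.0243 in the authors' deposited table and a quasi-binomial p of 0.101. In the other event, with a mean of 386 reads, the same exon was included at 1, 1, 0.988 and 1. A flanking exon of the called event, at chr16:30371048-30371162 and named here after its values were seen, went the other way. Its levels were 0.73 and 0.925 in the first set, against 0.657 and 0.578 in the second. The authors' deposited table lists it at 0.21 with FDR 0.337, so it was not called.

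TBC1D3 and TBC1D8 were higher in the first set only where library 2 of the second set was counted. TBC1D3 belongs to a family of near-identical copies on chromosome 17, so reads may come from other copies and its value is uncertain; its exon of 86 nt at chr17:36346762-36346847 (ENSG00000197681.8) could not be matched to the annotation. It was included at 1 in 3 libraries and at 0.531 (0.373 to 0.683) in library 2 of the second set, from 33, 33, 32 and 39 reads. The authors' deposited table lists it at 0.234 with FDR 0.00814, the quasi-binomial p was 0.0439, and without that library the difference was 0.

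The called TBC1D8 exons, of 286 nt at chr2:101645953-101646238 and of 118 nt at chr2:101648730-101648847 (ENSG00000204634.8), are neighbours that share their flanking exons and their skipping reads, so they count as 1 observation. The exon of 286 nt was included at 0.943, 1, 1 and 0.415, from 34, 23, 25 and 29 reads. The exon of 118 nt was at 0.942, 1, 1 and 0.574, from 30, 21, 19 and 41 reads. Only library 2 of the second set was low, with 12 skipping reads against 1 in all other libraries. In the authors' deposited table they stand at 0.264 (FDR 0.0361) and 0.184 (FDR 0.0243), and without that library they were -0.0286 and -0.0291. Deeper events of the same exons ran the other way: the exon of 286 nt was at 0.915 and 0.9 in the first set and the exon of 118 nt at 0.882 and 0.905, with 1 in both libraries of the second set for each.

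**Figure D3:**
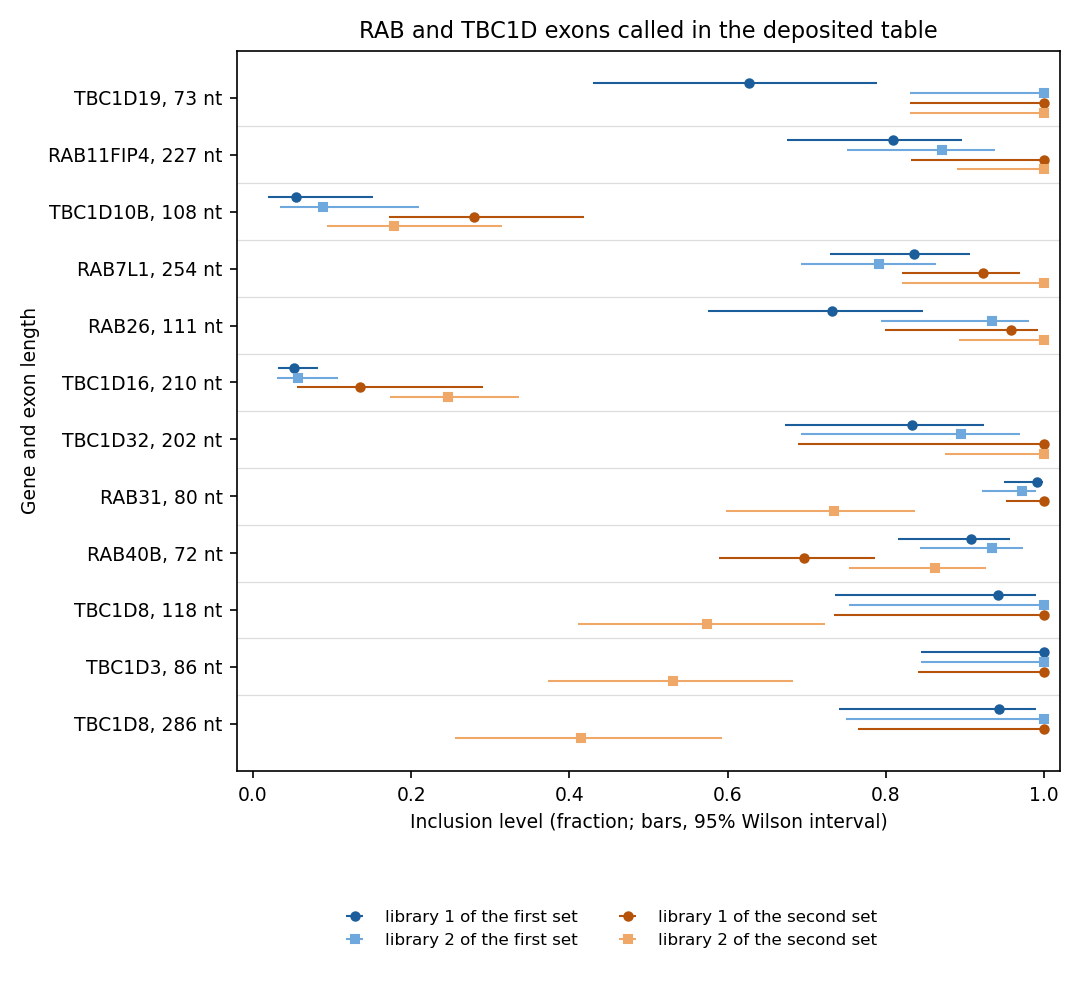
Inclusion level (fraction, x axis) of the 12 called events in each library, with 95% Wilson intervals as bars; genes and exon lengths are on the y axis, in order of the difference between the sets. In RAB31, TBC1D3 and both TBC1D8 exons, library 2 of the second set lies alone below the other libraries, and in TBC1D19 library 1 of the first set does.

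Leaving out library 2 of the second set kept 7 of the 12 called events beyond 0.1 on the same side, with 6 of the 7 lower ones and 1 of the 5 higher ones, RAB40B. The difference changed sign in 3 events and was 0 in 1. Leaving out library 1 or 2 of the first set, or library 1 of the second, kept 10, 12 and 11. The cause was not tested. These counts were not taken over all called events of the table, so they do not show a loss particular to these genes.

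**Figure D4:**
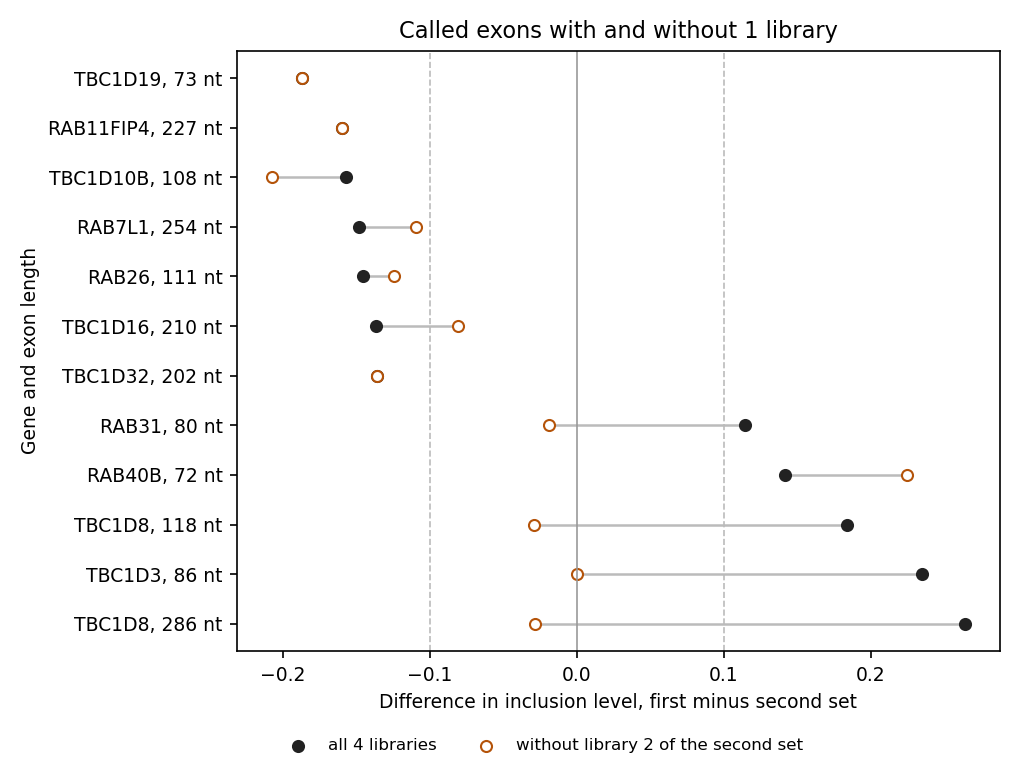
Difference in inclusion level, first minus second set (x axis), for each called exon (y axis) with all 4 libraries (filled points) and without library 2 of the second set (open points); dashed lines mark 0.1 in either direction. RAB31, TBC1D3 and both TBC1D8 exons move to between -0.0291 and 0, and 6 of the 7 exons lower in the first set stay at or beyond -0.1.

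The deepest exons of intermediate inclusion, which were chosen by reads and not by difference, gave the most precise levels, and none of these 15 was called. Of all tested events of intermediate inclusion, 11% were called. The share among equally deep ones was not taken, so the lack of calls does not show that deep exons stay unchanged. RAB11FIP3, an effector of RAB11 in recycling endosomes, came nearest to equal use of its forms. Its coding exon of 135 nt at chr16:541134-541268 was included at 0.527 (0.464 to 0.59), 0.513 (0.451 to 0.575) and 0.499 (0.432 to 0.567) in the first 3 libraries and at 0.667 (0.598 to 0.73) in library 2 of the second set. The sets overlapped, the authors' deposited table lists it at -0.063 with FDR 1, and without library 2 of the second set the difference was 0.0213.

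The RAB34 forms that start 3 bases apart were read in events that share their skipping reads. Each level sets 1 form against skipping of the exon, so the choice between the forms was not measured. The form of 69 nt was included at 0.855 and 0.714 in the first set, against 0.825 and 0.61 in the second, and the form of 66 nt at 0.927 and 0.861 against 0.918 and 0.809. In both forms library 2 was the lower one within each set, and the sets overlapped. The spread within a set was larger than the 0.067 (FDR 1) and 0.03 (FDR 0.978) that the authors' deposited table lists. Without library 2 of the second set the differences were -0.0408 for the form of 69 nt and -0.0236 for that of 66 nt, on the other side of 0. Another RAB34 exon, of 92 nt, was between 0.917 and 0.946 in all libraries.

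RAB40B also has a UTR exon of 465 nt at chr17:80654265-80654729. It was included at 0.125, 0.113 and 0.128 in the first 3 libraries and at 0.25 (0.199 to 0.309) in library 2 of the second set. The authors' deposited table lists it at -0.07 with FDR 0.203, and without library 2 of the second set the difference was -0.00862. RAB9A, which returns receptors from late endosomes to the Golgi, kept its UTR exon of 89 nt at 0.789, 0.721, 0.766 and 0.775. RAB28, a ciliary RAB, kept its exon of 130 nt at 0.958, 0.954, 0.963 and 0.884, and its difference of 0.0324 was -0.00696 without library 2 of the second set.

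Among the TBC1D genes, TBC1D7, a subunit of the TSC complex that restrains mTORC1, had its exon of 81 nt at 0.83 and 0.815 in the first set, against 0.771 and 0.796 in the second. The sets did not overlap, but the intervals of all 4 libraries did, and the authors' deposited table lists it at 0.039 with FDR 0.791. TBC1D4, the Akt substrate that controls glucose transporter traffic, had its exon of 111 nt at 0.842 and 0.879 against 0.932 and 0.875, an overlap. The exon of 51 nt of TBC1D9B was at 0.0601, 0.0427, 0.0365 and 0.0634, so the sets spanned nearly the same range. TBC1D20, which acts on RAB1, had its exon of 186 nt at 0.862 and 0.932 against 0.857 and 1, and its difference of -0.0315 was 0.0399 without library 2 of the second set.

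TBC1D25, known from autophagosome maturation, had library 1 of the first set apart from the other 3. Its exon of 155 nt at chrX:48403257-48403411 was included at 0.858 (0.772 to 0.915) and 0.687 (0.594 to 0.768) in the first set, against 0.667 and 0.69 in the second. The authors' deposited table lists it at 0.094 with FDR 0.58, and without library 1 of the first set the difference was 0.00882. TBC1D31, a protein of centriolar satellites, had its exon of 195 nt at 0.827 and 0.821 in the first set, against 0.846 and 0.896 in the second. The sets did not overlap, but the intervals of all libraries did. Its exon of 93 nt was at 0.879 and 0.93 against 0.962 and 0.925, an overlap. The authors' deposited table lists the 2 exons with FDR values of 0.761 and 0.546.

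**Figure D5:**
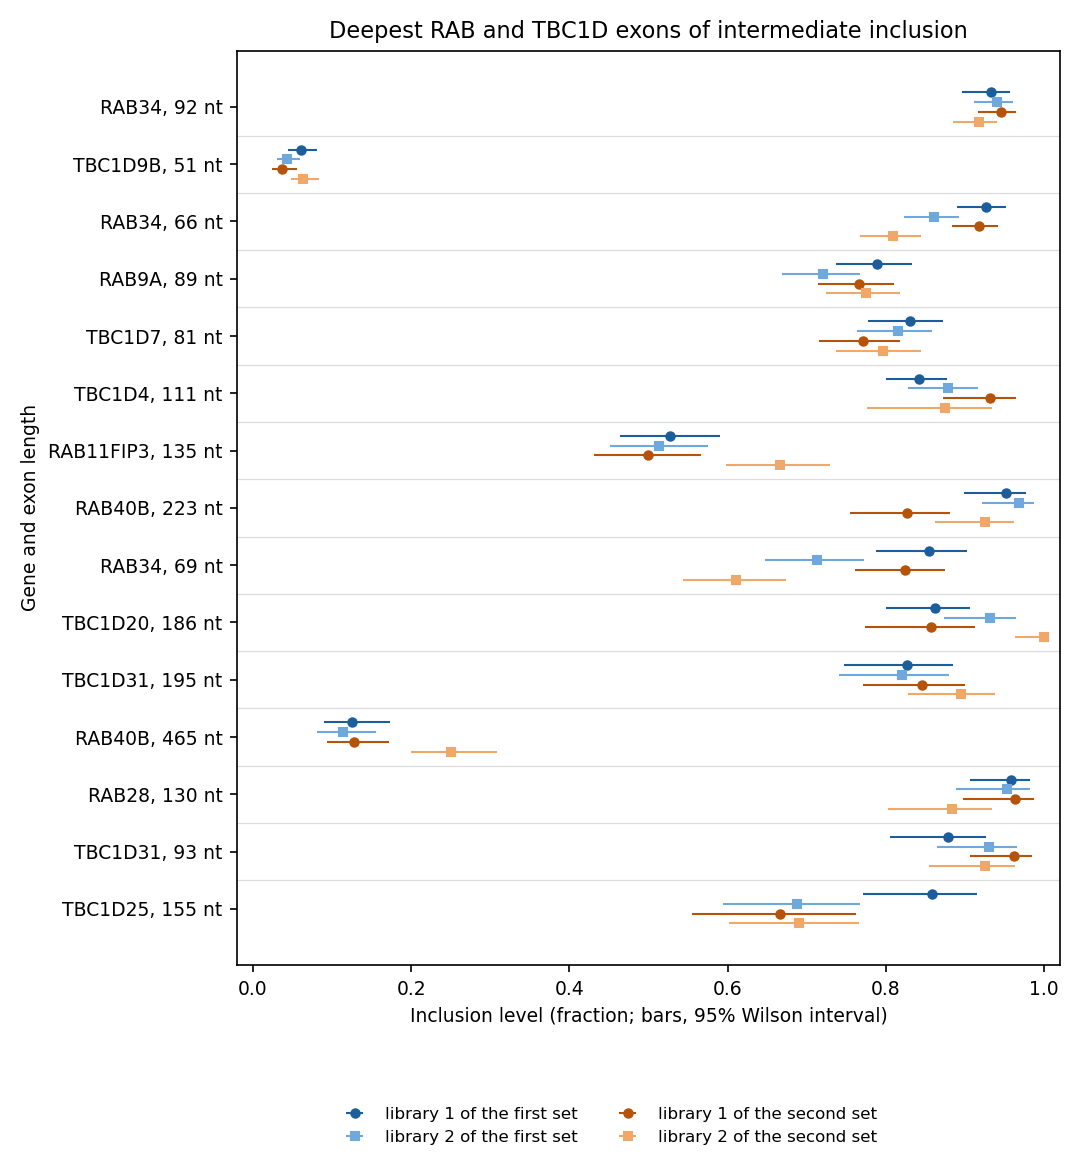
Inclusion level (fraction, x axis) in each library, with 95% Wilson intervals as bars, of the 15 deepest events between 0.05 and 0.95 (gene and exon length on the y axis, ordered by reads). The libraries of RAB9A and TBC1D7 lie close together, while RAB11FIP3 and the RAB40B exon of 465 nt have library 2 of the second set apart, at 0.667 and 0.25.

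None of the events of the best-known RABs was called, beside 2.71% of all tested events. Their levels lay near 0 or near 1 in every library, where a difference of 0.1 cannot arise. The lack of calls therefore follows from these levels. RAB11A and RAB11B, of the recycling endosome, RAB8A, of exocytosis and the cilium, and RAB7A, of the late endosome, had every tested exon at 0.963 or above in every library. In RAB7A the exon of 61 nt was at 0.997 and 0.998 in the first set, against 0.988 and 0.991 in the second, from 2192 to 2719 reads. The sets did not overlap and the quasi-binomial p was 0.0347 without adjustment, but the authors' deposited table lists it at 0.008 with FDR 1.

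The RAB5 genes, of the early endosome, showed both ends of the scale. RAB5A has an exon of 170 nt at chr3:20012040-20012209 that was included at 0.0088 and 0.0424 in the first set, against 0 in the second, where 85 and 115 reads allow up to 0.0221 and 0.0164. All 13 of its inclusion reads came from the first set, but the authors' deposited table lists it at 0.026 with FDR 0.383. The UTR exon of 117 nt of RAB5C was at 0.0407, 0.0445, 0.0416 and 0.0516, and a partly coding exon of 216 nt between 0 and 0.00145. The other RAB5A, RAB5B and RAB5C exons were at 0.961 or above.

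In RAB6A, skipping of both copies printed above was rare, with at most 2 such reads in a library. Each copy is its own event, included at 0.968 or above, and the share of the second copy among the inclusion reads of both was computed, a measure chosen after the data were seen. This share was 0.413 (0.376 to 0.452) and 0.395 (0.353 to 0.439) in the first set, against 0.45 (0.387 to 0.515) and 0.562 (0.497 to 0.625) in the second. Both libraries of the second set were higher, library 2 by more than its interval. The difference in share was -0.102, and it was -0.0456 without that library. The exact permutation test of 2 against 2 libraries can give no p below 0.333, and gave that value. The deposited test does not compare these copies with each other.

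RAB1A, of transport from the ER to the Golgi, had 3 of the 9 events with an unadjusted quasi-binomial p under 0.05, and is named here after its values were seen. Its coding exon of 96 nt at chr2:65325105-65325200 was at 1 in the first 3 libraries and 0.957 in library 2 of the second set, from 825, 814, 685 and 722 reads. A neighbouring exon of 96 nt at chr2:65318117-65318212 was likewise at 1, 1, 1 and 0.957. The 2 events share their flanking exons and their skipping reads, 19 in that library and none in the others, and the authors' deposited table lists them at FDR 0.165 and 0.0652. Their differences, 0.0213 for the first and 0.0217 for its neighbour, were 0 without that library. In one more event, of the first of these exons with other flanking exons, both libraries of the second set were lower, at 0.991 and 0.994 against 1 and 1, at FDR 1 in the authors' deposited table.

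The rest of the RAB machinery was read from lists of other TBC-domain proteins, exchange factors, prenylation and recycling factors, and effectors. Of 693 tested events in 101 genes, 26 were called in the authors' deposited table (3.75%, beside 2.71% of all tested events), 10 higher and 16 lower in the first set. By list, 2 of 56 events of other TBC-domain genes were called, 12 of 310 of exchange factors, 12 of 272 of effectors, and none of 55 of prenylation and recycling factors, where 0 had an unadjusted quasi-binomial p under 0.05. When library 2 of the second set was left out, 16 of the 26 called events stayed beyond 0.1 on the same side. That count was not taken over all tested events either. The effector MICAL2, the effector RUFY2 and the exchange factors KIAA1432, RABGEF1, ST5 and TRAPPC10 each had a called exon that was at 1 in 3 libraries and lower only in that library.

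The lowest FDR of these lists, by which it is named here, was that of TRAPPC2L, a subunit of the TRAPP exchange factors. Its exon of 99 nt at chr16:88925753-88925851 was included at 0.196 and 0.153 in the first set, against 0.0513 and 0.00574 in the second. The authors' deposited table lists it at 0.146 with FDR 1.57e-06, the quasi-binomial p was 0.00509 without adjustment, and the difference stayed between 0.123 and 0.169 when any 1 library was left out. The called genes among the other TBC-domain proteins, SGSM2 and RABGAP1L, are also named here after their values were seen. The SGSM2 exon of 62 nt was at 0.723 and 0.85 in the first set, against 0.921 and 1 in the second, and its -0.174 (FDR 0.00149 in the authors' deposited table) was -0.111 without library 1 of the first set. The RABGAP1L exon of 283 nt was at 0.2 and 0.333 against 0.628 and 1, and its -0.548 (FDR 0.00195 in the authors' deposited table) was -0.361 without library 2 of the second set. The unadjusted quasi-binomial p was 0.035 for SGSM2 and 0.00746 for RABGAP1L.

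At the depth limit, the events just inside were those of RAB3GAP1, TBC1D32 and TBC1D24, with means of 20.75, 21 and 21.25 reads and differences of -0.107, 0.0469 and 0.0848. Those just outside were of RAB7L1, TBC1D12 and RAB34, with means of 19.75, 19.5 and 19 reads and differences of -0.147, -0.071 and 0.0424. The RAB7L1 event left out was of the exon of 254 nt described above, with other flanking exons, at 0.84 and 0.867 in the first set, against 1 in both libraries of the second.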

How the data were processed

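Junction reads were tested in 4 RNA libraries of 293T cells, 2 in each set of 1 deposited table. Per the file headers, the table has the layout of rMATS for skipped exons counted on junction reads; per the submitters' processing notes, cutadapt and STAR were used with hg19. The rMATS version, aligner settings and annotation release are not given in the sources used here. The authors' deposited values are read counts of inclusion and skipping, inclusion levels as a fraction, the difference between sets as a score from -1 to 1, and a p-value and FDR per event. Inclusion levels recomputed from the reads matched the deposited ones to 0.0005.

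The members, lists and thresholds were chosen with earlier results of these data known. Named events, 1 per exon, were the called ones (for TBC1D10B and TBC1D8, beyond that rule, not the deepest event of the exon), the 15 with most reads and the 5 largest differences at a mean of at least 100 reads among those of intermediate inclusion, and those of RAB5, RAB6A, RAB7A, RAB8A and RAB11; others are said to be named after their values were seen. Exons were matched to GENCODE release 29 by spacing (313 of 318 events, with 75 of 77 gene identifiers found there), and no coordinate was converted.

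The quasi-binomial model was fitted to reads of all 54503 tested events in R 4.3.3, with its dispersion moderated by squeezeVar of limma 3.58.1, never under 1, and Benjamini-Hochberg adjustment over all of them. The plan had the dispersion prior come from every event. Tested on simulated data, that version did not recover the events changed there. It and further versions, 9 in all, were run with the whole-table counts of the real data in view, before the one used was settled: its prior comes from events with at least 20 reads of the rarer form and follows depth. It recovered most of the changed events under counting noise. Under the scatter measured between these libraries it missed more than it found, at changes larger than any called RAB or TBC1D difference. Those changes were simulated only in events of middling inclusion, and the called events lay nearer the ends of the scale. Little power was thus seen at middling inclusion, and power for the called differences was not measured. Wilson intervals and figures used Python 3.11.15 with scipy 1.17.1. Other read minimums, thresholds and models and leaving out each library were tried as alternatives. Reads per event set the precision, and the median was 127.5 to 173.5 per library.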

Additional observations from a re-analysis of the deposited data

How the results depend on the processing

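The count of 12 called RAB and TBC1D events from the authors' deposited table was 6 at a mean of at least 50 reads, 2 at a difference of at least 0.2, 4 at an FDR under 0.01 and 7 where the sets may not overlap, and leaving out each library in turn left 7 to 12. A minimum of 10 reads or none gave 13, a difference of at least 0.05 gave 18, adjustment over tested events alone 12, and 1 event per exon 9. For the 26 called events of the other RAB pathway genes, the same stricter settings for reads, difference and FDR gave 10, 11 and 15. A difference of at least 0.05 gave 40, and leaving out each library left 16 to 26. Except where the sets may not overlap, none of these counts was taken over all tested events. Without library 2 of the second set, the differences of RAB31 (-0.0186) and of the TBC1D8 exons of 286 nt (-0.0286) and 118 nt (-0.0291) reversed; without library 1 of that set they were 0.247, 0.557 and 0.397. Of the other named differences under their alternatives, 313 were labelled as moved by no more than the spread within sets and 14 as moved by more. Leaving out 1 of the 2 libraries of a set cannot, beyond rounding, move a difference by more than that spread. Where a left-out library gave the label of a larger move, the move equalled the spread and rounding decided. These counts therefore do not measure how stable the differences are. The quasi-binomial model gave no adjusted p under 0.05 among the RAB and TBC1D events; it gave 6 without library 1 of the second set, and 0 to 6 over the libraries left out, the lone library then being assumed to vary like the others. Over the whole table it gave 661 without that library and 0 with all. The version used was settled with the whole-table counts in view. Of the 9 other versions of its dispersion, 1 was the planned one and the rest were added after seeing the data. These 9 gave 0 to 64 over the whole table, 0 among the RAB and TBC1D events, and 8 to 26 of those events an unadjusted p under 0.05. The limma fit with precision weights gave 2 (RAB1A and RAB7A) and 128 over the whole table, and limma without weights 0 in both. The causes were not tested. The planned edgeR fit was not run. No paired analysis was possible because the table's columns carry no replicate numbers. Depth limits events near 20 reads, where 1 library can decide a call.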
